A study of Homo sapiens with 9 samples.

Results

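Small nucleolar RNA host genes are transcribed units whose introns, or in some cases exons, carry small nucleolar RNAs (snoRNAs). They were taken here as every entry with a GENCODE 29 symbol made of SNHG and a number, together with GAS5, ZFAS1, DANCR, EPB41L4A-AS1, TAF1D, EIF4A2 and MIR17HG, which is the host of the miR-17-92 microRNA cluster and holds no annotated snoRNA. This rule found 32 entries (31 symbols) among the 59107 entries of each deposited table. Of these, 26 had at least 1 FPKM (fragments per kilobase of transcript, normalised to sequencing depth) in at least 3 of 9 libraries and entered the tests, which covered 13777 genes.

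The libraries were made from total RNA of HK1, a cell line grown from a human nasopharyngeal carcinoma. The cells were transfected with an siRNA against E2F1, an siRNA against E2F3 or a non-targeting control siRNA, each at 100 nM, and had 3 libraries per group. RNA was taken 48 h after transfection, and all 9 libraries come from this 1 cell line. The labels name 1 siRNA treatment per target, so effects of the siRNA sequence and effects of losing its target cannot be told apart.

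When a host transcript is spliced, its excised intron is trimmed to a snoRNA that guides chemical modification of ribosomal or spliceosomal RNA. Box C/D snoRNAs direct 2'-O-methylation with fibrillarin, box H/ACA snoRNAs direct pseudouridylation with dyskerin, and small Cajal body RNAs (scaRNAs) act on spliceosomal RNA. Many non-coding hosts start with a run of pyrimidines, as ribosomal protein mRNAs do, and their spliced RNAs are known substrates of nonsense-mediated decay, so the level of a spliced host need not follow that of its snoRNA.

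Levels of the host entries are read here as those of the spliced or unspliced host. Many annotated snoRNAs overlap exon bases of their host when the exons of all its annotated transcripts are merged. Clear of these merged exons were 0 of 7 in SNHG1 (25 transcripts) and 0 of 5 in EIF4A2 (27 transcripts), but 71 of 84 in SNHG14. Such an overlap does not show that a snoRNA lies in an exon of the main spliced host. How reads at such places were assigned is not given in the sources used here. Of 160 annotated small RNA genes inside the 32 entries (145 snoRNAs, 5 scaRNAs and 10 microRNAs), 155 were listed at 0 in every library, 5 were above 0 in any library and 2 could be tested. None of the 160 lies inside GAS5, whose snoRNAs were not analysed here. The 2 tested were SNORA71B inside SNHG17 and SNORA73B inside SNHG3, and neither passed the test in any comparison. SNORA71B had 3.25, 7.08 and 7.14 FPKM in the E2F1 siRNA libraries, 1.97, 6.72 and 4.33 in the E2F3 siRNA libraries and 4.93, 2.88 and 1.28 in the control libraries, so the groups overlapped. Results below are therefore on hosts.

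The snoRNAs of ZFAS1 and SNHG16 are shown because the calls of these hosts, ZFAS1 after both siRNAs and SNHG16 after E2F1 siRNA, held under every alternative setting tried. The sequences are from GENCODE 29 on GRCh38 and all lie on the plus strand. SNORD12 (chr20:49280683-49280772), SNORD12B (chr20:49280319-49280409) and SNORD12C (chr20:49278940-49279028) lie inside ZFAS1. SNORD1A (chr17:76561634-76561705), SNORD1B (chr17:76561109-76561192) and SNORD1C (chr17:76558791-76558868) lie inside SNHG16. Capitals mark the first exact match to the C box (TGATGA) within the first 25 bases and the last exact match to the D box (CTGA) within the last 20 bases. An exact C box was found in all ZFAS1 snoRNAs but, within SNHG16, in SNORD1B alone.
SNORD12: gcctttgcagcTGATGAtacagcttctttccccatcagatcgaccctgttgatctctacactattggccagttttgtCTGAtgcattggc
SNORD12B: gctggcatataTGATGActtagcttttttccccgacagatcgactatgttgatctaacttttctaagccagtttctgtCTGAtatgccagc
SNORD12C: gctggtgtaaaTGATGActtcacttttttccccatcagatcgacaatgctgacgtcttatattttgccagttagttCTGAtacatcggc
SNORD1A: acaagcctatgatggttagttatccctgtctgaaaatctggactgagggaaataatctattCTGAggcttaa
SNORD1B: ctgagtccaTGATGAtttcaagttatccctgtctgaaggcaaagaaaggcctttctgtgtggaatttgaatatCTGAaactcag
SNORD1C: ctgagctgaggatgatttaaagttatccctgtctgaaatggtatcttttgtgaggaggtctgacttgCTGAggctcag

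DANCR, which was higher after both siRNAs, holds an H/ACA snoRNA, SNORA26 (chr4:52713249-52713370, plus strand, GRCh38, GENCODE 29). Capitals mark the ACA found 3 bases before its end.
SNORA26: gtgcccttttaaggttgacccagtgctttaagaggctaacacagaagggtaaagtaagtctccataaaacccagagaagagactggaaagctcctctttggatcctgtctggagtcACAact

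MIR17HG, the host with the largest fold difference after either siRNA, carries 6 hairpins on chromosome 13. The mature strands named here are from RefSeq (GRCh38.p14, plus strand), and the first and last of them lie at chr13:91350618-91350640 and chr13:91351361-91351382. Capitals mark the seed, bases 2 to 8, which pairs with target mRNAs. By seed, miR-17-5p and miR-20a-5p form a group (AAAGUGC), miR-19a-3p and miR-19b-3p another (GUGCAAA), and miR-18a-5p (AAGGUGC) and miR-92a-3p (AUUGCAC) stand alone.
hsa-miR-17-5p: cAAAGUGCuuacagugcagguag
hsa-miR-20a-5p: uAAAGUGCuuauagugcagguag
hsa-miR-19a-3p: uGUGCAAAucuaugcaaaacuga
hsa-miR-19b-3p: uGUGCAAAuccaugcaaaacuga
hsa-miR-18a-5p: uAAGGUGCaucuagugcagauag
hsa-miR-92a-3p: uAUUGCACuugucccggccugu

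Because the targets of the siRNAs are DNA-binding factors, the promoters (250 bases before to 50 after RefSeq's start, GRCh38.p14) were searched on both strands for the E2F site in 4 spellings, TTTCCCGC, TTTCGCGC, TTTGCCGC and TTTGGCGC. A match was found in 3 of the 23 tested hosts with a promoter sequence (ZFAS1, SNHG1 and SNHG17), and in 3.31% of all 35116 promoters. Hosts had a single promoter each, whereas the 35116 were not reduced to a single promoter per gene or limited to tested genes. This share and those of all promoters below therefore come from a set unlike the hosts. The ZFAS1 window is chr20:49278392-49278691 (plus strand) with its match, a reverse complement, starting at position -85 relative to the start. The SNHG1 window is chr11:62855836-62856135 (minus strand) with its match at position -180. Capitals mark the matches, which describe letters and not binding.
ZFAS1 promoter: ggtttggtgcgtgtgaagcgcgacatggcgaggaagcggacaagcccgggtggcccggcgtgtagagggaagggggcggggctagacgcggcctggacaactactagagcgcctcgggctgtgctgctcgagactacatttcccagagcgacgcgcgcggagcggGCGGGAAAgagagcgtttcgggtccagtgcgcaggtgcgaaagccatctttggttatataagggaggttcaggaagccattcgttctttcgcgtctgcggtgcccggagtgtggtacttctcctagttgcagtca
SNHG1 promoter: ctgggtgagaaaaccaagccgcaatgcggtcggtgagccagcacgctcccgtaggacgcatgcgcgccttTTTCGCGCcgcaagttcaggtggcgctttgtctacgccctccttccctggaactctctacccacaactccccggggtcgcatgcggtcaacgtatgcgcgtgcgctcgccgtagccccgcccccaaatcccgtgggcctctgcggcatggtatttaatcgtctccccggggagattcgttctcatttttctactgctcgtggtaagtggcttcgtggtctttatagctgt

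A start with a C followed by at least 4 pyrimidines, within 5 bases of RefSeq's start, was found in 12 of these 23 promoters and in 18.1% of all promoters. The 12 were those of DANCR, EIF4A2, SNHG4, SNHG5, SNHG7, SNHG8, SNHG12, SNHG16, SNHG17, SNHG19, TAF1D and ZFAS1. Of these 12, DANCR, EIF4A2 and SNHG4 were called higher and SNHG16 and ZFAS1 lower after E2F1 siRNA, where 37.8% of all genes were called. After E2F3 siRNA, DANCR, EIF4A2, SNHG4 and SNHG12 were called higher and ZFAS1 lower, where 37.6% of all genes were called. The windows below run from 10 bases before to 20 after the start of EIF4A2, SNHG4 and ZFAS1, with the run in capitals. They lie at chr3:186783567-186783596 and chr5:139274091-139274120 and chr20:49278632-49278661, all on the plus strand of GRCh38.p14. The E-box CACGTG, a site of MYC and related factors, was present in 1 of the 23 (SNHG7) and in 7.26% of all promoters.
EIF4A2 start: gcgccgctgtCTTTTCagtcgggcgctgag
SNHG4 start: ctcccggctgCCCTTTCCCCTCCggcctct
ZFAS1 start: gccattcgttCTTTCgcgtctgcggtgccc

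Each siRNA lowered its own target. E2F1 mRNA was at 7.17 to 7.95 FPKM in the E2F1 siRNA libraries, 21.0 to 22.97 in the E2F3 siRNA libraries and 19.53 to 20.2 in the control libraries. E2F3 mRNA was at 27.78 to 29.23 FPKM after E2F1 siRNA, 10.52 to 12.61 after E2F3 siRNA and 24.42 to 27.17 in control. All 6 squamous epithelial markers listed (KRT5, KRT14, KRT17, TP63, CDH1, EPCAM) were above 1 FPKM, with sums of 913.2 to 979.1 FPKM after E2F1 siRNA, 830.3 to 914.2 after E2F3 siRNA and 1405.0 to 1440.8 in control. EPCAM did not follow this sum, with means of 194.6 FPKM after E2F1 siRNA, 176.9 after E2F3 siRNA and 174.6 in control. Of 3 fibroblast markers, 1 reached 1 FPKM, COL1A1, with means of 17.9 FPKM after E2F1 siRNA, 14.0 after E2F3 siRNA and 12.8 in control. The fibroblast sums were 16.9 to 19.9 FPKM after E2F1 siRNA, 12.9 to 15.0 after E2F3 siRNA and 13.1 to 14.2 in control. The 3 endothelial markers summed to 0.69 to 1.22 FPKM after E2F1 siRNA, 0.29 to 0.67 after E2F3 siRNA and 1.04 to 1.87 in control. The part of these marker differences in the host results was not tested. None of 4 leukocyte markers reached 1 FPKM in any library (sums of 0.08 to 0.85). Absolute depth is unknown. Steps in the FPKM of short single-exon genes put it, relative to control replicate 1, at 0.904 to 1.15 after E2F1 siRNA, 0.981 to 0.993 after E2F3 siRNA and 0.86 to 1.22 in control. Differences below are those of log2(FPKM + 1), where the added 1 shrinks the differences of low genes, and a gene is called when its limma adjusted p is under 0.05. No label states that replicate libraries derive from separate cultures, so p-values measure the spread between these libraries, which may be technical. In such bulk RNA, a change in RNA per cell and a change in the number of cells that make it cannot be told apart.

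Host genes spanned a wide range of levels. GAS5, a growth-arrest transcript that hosts box C/D snoRNAs, was the most abundant, above 98.9% of tested genes in control. MIR17HG was the lowest of the tested hosts, above 17.3%. Summed over the non-coding entries other than MIR17HG, the hosts gave 2137.9 to 2204.4 FPKM after E2F1 siRNA, 2217.9 to 2275.6 after E2F3 siRNA and 2240.2 to 2336.3 in control. Without GAS5 the sums were 1555.7 to 1583.0 FPKM after E2F1 siRNA, 1580.5 to 1593.0 after E2F3 siRNA and 1557.2 to 1593.1 in control, and these ranges overlapped. GAS5 alone made up 26.9 to 31.8% of the summed level. In control, neighbours in the order of levels were separated in every library down to TAF1D, from GAS5 to ZFAS1 to SNHG1 to TAF1D, and also TAF1D from SNHG6. The control ranges of SNHG6 and EIF4A2 overlapped, as did those of SNHG5 and SNHG8 and those of SNHG9 and SNHG14. SNHG19, SNHG15, SNHG17 and DANCR each overlapped the next, as did SNHG4, EPB41L4A-AS1 and SNHG12, and all neighbours from SNHG11 to SNHG26.

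**Figure D1:**
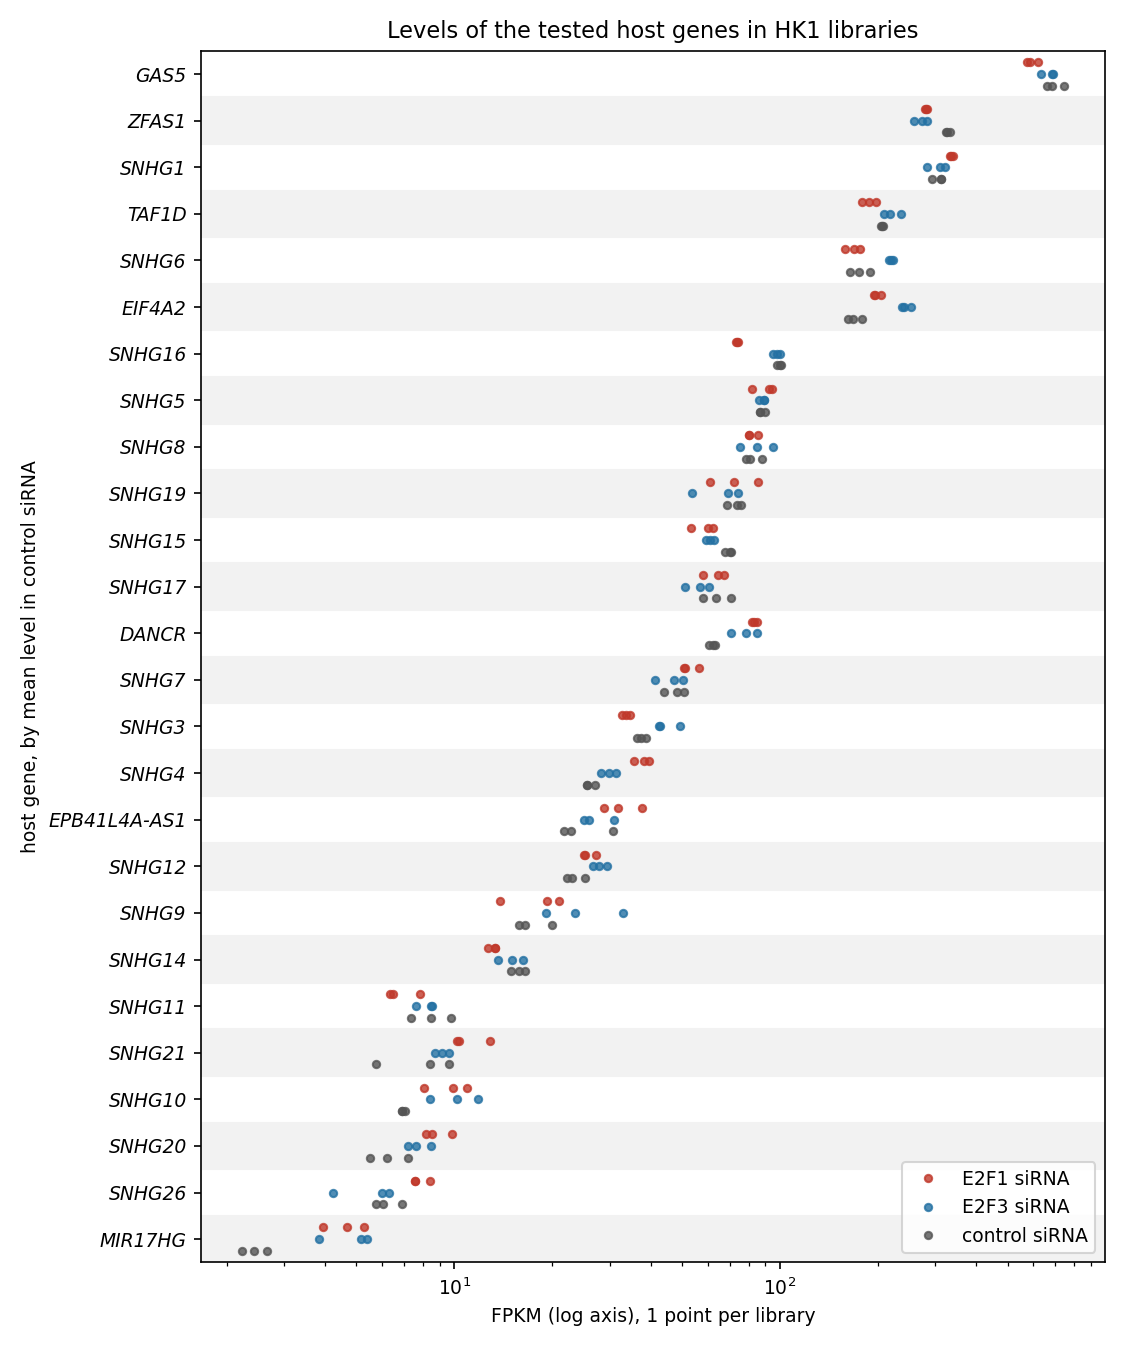
FPKM (log axis) of the 26 tested host genes, 1 point per library, with E2F1 siRNA above E2F3 siRNA above control siRNA in each row and rows ordered by the control mean. GAS5 lies highest at 574.37 to 743.18 FPKM, and at the bottom the control points of MIR17HG (2.23 to 2.65) lie apart from those of either siRNA.

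After E2F1 siRNA, hosts moved in both directions. MIR17HG, SNHG4, SNHG21, SNHG20, DANCR, SNHG10, EIF4A2 and SNHG1 were called higher, and SNHG16, SNHG15, SNHG14, GAS5 and ZFAS1 lower. This is 13 of 26 hosts (50.0%), where 37.8% of all tested genes were called. By direction it was 8 higher (20.5% of all genes) and 5 lower (17.3%). The background depends on the filter on low genes. With a filter of 5 FPKM, which all 26 hosts passed, 9 hosts were higher and 5 lower. All genes then had 2734 higher and 2077 lower of 10249, a larger share than 37.8%. The 3 libraries of each group did not overlap for 9 hosts that were higher and 7 that were lower, where 27.7% and 22.6% of all genes (50.3% together) did so. The median difference over the tested hosts was 0.03, and that over all genes was 0.0276. With scaling by RLE or by the upper quartile the split was 6 higher and 7 lower, as SNHG1 and SNHG21 lost their calls and TAF1D (log2 -0.16 under both) and SNHG3 (log2 -0.18 under both) gained one. In a fit of only the 6 libraries compared it was 8 higher and 7 lower, as TAF1D, SNHG3 and SNHG26 gained a call and SNHG21 lost its own. The count of higher hosts was 5 without control replicate 1, without E2F1 siRNA replicate 1 or without E2F1 siRNA replicate 2.

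After E2F3 siRNA, MIR17HG, EIF4A2, SNHG10, DANCR, SNHG6, SNHG3, SNHG12 and SNHG4 were called higher, and ZFAS1 and SNHG15 lower. These 10 of 26 (38.5%) compare with 37.6% of all genes, which is close to that background. With a filter of 5 FPKM the hosts were again 8 higher and 2 lower of 26. All genes then had 2505 higher and 2078 lower of 10249, a larger share than that of the hosts. The higher hosts numbered 8 (21.1% of all genes were called higher) and the lower 2 (16.4%). Groups did not overlap for 9 higher and 2 lower hosts, against 28.6% and 21.0% of all genes (49.5% together). The median was 0.07 over the hosts and 0.0417 over all genes. The lower count was 1 without control replicate 1 or 2 and without E2F3 siRNA replicate 2 or 3, each time through loss of the SNHG15 call.

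Set directly against each other, the siRNAs differed for 9 of 26 hosts (34.6%), below the 45.5% of all genes. EIF4A2, SNHG16, SNHG3, SNHG6, TAF1D and GAS5 were higher after E2F3 siRNA than after E2F1 siRNA (6 hosts; 23.5% of all genes), and SNHG4, SNHG26 and SNHG1 lower (3 hosts; 22.0%). Groups did not overlap for 7 higher and 5 lower hosts (27.9% and 25.9% of all genes, 53.8% together). The median was 0.04 over the hosts and 0.0153 over all genes. With upper-quartile scaling the split was 7 higher and 2 lower. Both comparisons with control use the same 3 control libraries, so their values are given side by side and not counted together.

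**Figure D2:**
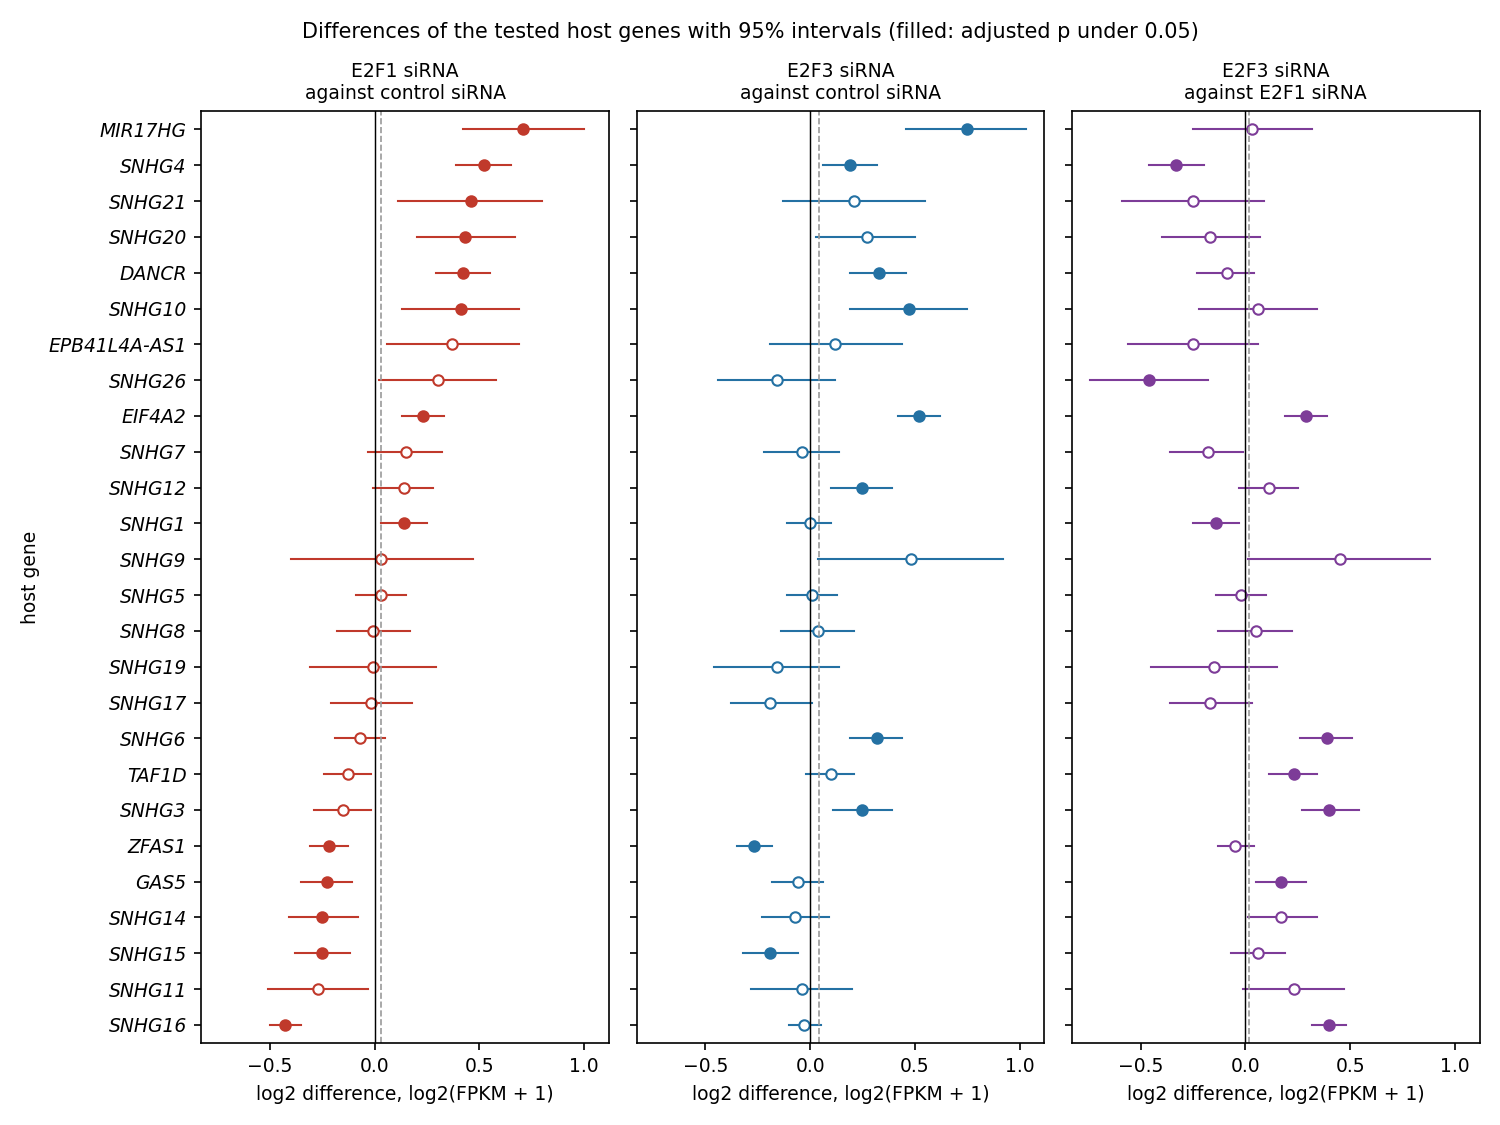
Log2 differences of the 26 tested hosts with 95% intervals for E2F1 siRNA against control, E2F3 siRNA against control and E2F3 siRNA against E2F1 siRNA, with filled points for adjusted p under 0.05 and a dashed line at the median of all genes. MIR17HG lies furthest right in both control comparisons (0.71 after E2F1 siRNA, 0.75 after E2F3 siRNA), and SNHG16 furthest left after E2F1 siRNA (-0.43) but near 0 after E2F3 siRNA (-0.03).

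Of the hosts of box C/D snoRNAs, GAS5 (chr1:173863900-173868882, minus strand; GENCODE 29 on GRCh38, as for all hosts) was at 621.4, 574.37 and 585.53 FPKM in the E2F1 siRNA libraries, 687.47, 682.67 and 633.44 in the E2F3 siRNA libraries, and 743.18, 683.09 and 659.28 in the control libraries. All E2F1 siRNA libraries were below both other groups, which overlapped each other. GAS5 fell after E2F1 siRNA (log2 -0.23, SE 0.05, limma adjusted p = 0.00768), while after E2F3 siRNA its difference was -0.06 with a 95% interval of -0.18 to 0.06 (adjusted p = 0.432). The direct difference of 0.17 passed (adjusted p = 0.026). It did not pass without E2F1 siRNA replicate 2 or 3, without E2F3 siRNA replicate 1 or 2, or with no filter on low genes (log2 0.15 to 0.17, adjusted p 0.0696 to 0.0862).

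ZFAS1, named for its position antisense to the start of ZNFX1 (chr20:49278178-49295738, plus strand), was at 279.03, 280.43 and 282.33 FPKM after E2F1 siRNA, 273.3, 258.06 and 283.56 after E2F3 siRNA, and 323.25, 324.92 and 333.33 in control. Every library of both siRNAs was below every control library. ZFAS1 fell after E2F1 siRNA (log2 -0.22, SE 0.04, limma adjusted p = 0.00142) and after E2F3 siRNA (log2 -0.27, SE 0.04, adjusted p = 0.000472), and both calls held under all 16 alternative settings. The siRNAs differed from each other by -0.05 (95% interval -0.13 to 0.04).

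SNHG16, host of the SNORD1 snoRNAs printed above (chr17:76557766-76565348, plus strand), was at 73.44, 73.66 and 74.18 FPKM after E2F1 siRNA, 95.08, 97.92 and 99.82 after E2F3 siRNA, and 98.16, 99.85 and 100.37 in control. The E2F1 siRNA libraries lay far below the rest, and the other groups overlapped. It fell after E2F1 siRNA (log2 -0.43, SE 0.03, limma adjusted p = 1.17e-05), the smallest adjusted p of any host in that comparison. After E2F3 siRNA the difference was -0.03 with a 95% interval of -0.1 to 0.05, and E2F3 siRNA exceeded E2F1 siRNA by 0.4 (SE 0.03, adjusted p = 1.35e-05). Of the annotated exon bases of SNHG16, 30.6% are shared with AC015802.6 on the opposite strand, and whether counting used strand is not given in the sources used here.

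SNHG1, which holds SNORD22, SNORD25 to SNORD28 and SNORD30 (chr11:62851988-62855914, minus strand), was at 333.83, 340.29 and 333.04 FPKM after E2F1 siRNA, 320.64, 310.21 and 283.67 after E2F3 siRNA, and 311.5, 292.03 and 312.34 in control. The E2F1 siRNA libraries were the highest, and the other groups overlapped. Its rise after E2F1 siRNA was small (log2 0.14, SE 0.05, limma adjusted p = 0.0481) and lost its call under 11 of 16 alternatives (log2 from 0.11, adjusted p up to 0.156), among them both scalings and leaving out any of the 6 libraries compared. After E2F3 siRNA the 95% interval was -0.11 to 0.1. The direct difference of -0.14 (adjusted p = 0.0377) was lost under 10 of 16 alternatives (adjusted p up to 0.122), among them leaving out any E2F1 siRNA library, E2F3 siRNA replicate 2 or 3, or control replicate 1.

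SNHG6, host of SNORD87, was at 175.64, 158.51 and 168.28 FPKM after E2F1 siRNA, 216.12, 218.55 and 222.22 after E2F3 siRNA, and 188.75, 164.52 and 174.6 in control. Only the E2F3 siRNA libraries stood apart, above both other groups. It rose after E2F3 siRNA (log2 0.32, SE 0.05, limma adjusted p = 0.0015), was at -0.07 after E2F1 siRNA (95% interval -0.19 to 0.05), and differed directly by 0.39 (adjusted p = 0.000332). SNHG6 shares 29.3% of its annotated exon bases with MCMDC2 on the opposite strand.

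SNHG14, the long transcript of the imprinted Prader-Willi region that holds the SNORD116 and SNORD115 clusters, had 84 annotated snoRNA genes inside it, more than any other host. It was at 12.66, 13.33 and 13.29 FPKM after E2F1 siRNA, 16.25, 14.97 and 13.6 after E2F3 siRNA, and 15.78, 16.52 and 14.87 in control. E2F1 siRNA libraries were all below both other groups. It fell after E2F1 siRNA (log2 -0.25, SE 0.07, limma adjusted p = 0.0228). The call was lost without control replicate 1 (adjusted p = 0.0611), control replicate 2 (0.0779) or E2F1 siRNA replicate 1 (0.0724), at log2 -0.24, -0.21 and -0.22. After E2F3 siRNA the difference was -0.07 (95% interval -0.23 to 0.09). Of the 16 alternatives, the direct difference passed with upper-quartile scaling (log2 0.22, adjusted p = 0.0267) and without E2F3 siRNA replicate 3 (log2 0.24, adjusted p = 0.0277).

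SNHG26, host of SNORD93, was at 8.43, 7.59 and 7.55 FPKM after E2F1 siRNA, 6.28, 4.24 and 5.99 after E2F3 siRNA, and 6.02, 5.73 and 6.9 in control. The E2F1 siRNA libraries were above both other groups. Neither difference from control passed (0.30, 95% interval 0.02 to 0.58, after E2F1 siRNA and -0.16, interval -0.44 to 0.12, after E2F3 siRNA), but the direct one did (log2 -0.46, SE 0.13, limma adjusted p = 0.014). The difference after E2F1 siRNA passed without E2F3 siRNA replicate 2 (adjusted p = 0.0241) and in a fit of only the 6 libraries compared (adjusted p = 0.0334). SNHG5 (SNORD50B) and SNHG19 (SNORD60) passed no comparison. SNHG5 ranged from 81.93 to 94.6 FPKM after E2F1 siRNA, 86.44 to 89.27 after E2F3 siRNA and 86.72 to 89.68 in control, with 95% intervals of -0.09 to 0.15 after E2F1 siRNA and -0.11 to 0.13 after E2F3 siRNA. SNHG19 ranged from 60.77 to 85.52 FPKM after E2F1 siRNA, 53.71 to 74.06 after E2F3 siRNA and 68.84 to 75.69 in control. Its intervals were wider, -0.31 to 0.29 after E2F1 siRNA and -0.46 to 0.14 after E2F3 siRNA.

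Among hosts of box H/ACA snoRNAs, DANCR (chr4:52712404-52720351, plus strand), known for holding back differentiation of epidermal progenitors, was at 81.85, 83.05 and 84.91 FPKM after E2F1 siRNA, 70.92, 85.11 and 78.68 after E2F3 siRNA, and 62.17, 60.65 and 63.17 in control. All libraries of both siRNAs exceeded all control libraries. DANCR rose after E2F1 siRNA (log2 0.42, SE 0.06, limma adjusted p = 0.000438) and after E2F3 siRNA (log2 0.33, SE 0.06, adjusted p = 0.00216), with both calls kept under all 16 alternatives. The direct difference was -0.09 (95% interval -0.23 to 0.04), and without E2F3 siRNA replicate 2 it passed (log2 -0.15, adjusted p = 0.0405).

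SNHG4, host of SNORA74A, was at 35.65, 39.46 and 38.15 FPKM after E2F1 siRNA, 28.18, 29.74 and 31.36 after E2F3 siRNA, and 27.02, 25.52 and 25.49 in control. The groups formed 3 steps without overlap. SNHG4 rose after E2F1 siRNA (log2 0.52, SE 0.06, limma adjusted p = 8.54e-05) and less after E2F3 siRNA (log2 0.19, SE 0.06, adjusted p = 0.0289), and the direct difference was -0.33 (adjusted p = 0.00113). The call after E2F3 siRNA was lost under 6 of 16 alternatives: RLE scaling (log2 0.15, adjusted p = 0.0821), no filter (0.0518), and without control replicate 2 (0.0787), control replicate 3 (0.0857), E2F3 siRNA replicate 2 (0.0604) or E2F3 siRNA replicate 3 (0.0992). SNHG4 shares 14.0% of its annotated exon bases with MATR3 on the same strand.

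SNHG3, host of SNORA73A and SNORA73B, was at 32.78, 34.49 and 33.64 FPKM after E2F1 siRNA, 42.93, 49.32 and 42.48 after E2F3 siRNA, and 37.39, 36.41 and 38.73 in control. Control lay between the siRNAs, with no overlap. It rose after E2F3 siRNA (log2 0.25, SE 0.06, limma adjusted p = 0.00973), was at -0.15 after E2F1 siRNA (95% interval -0.29 to -0.02, adjusted p = 0.0756), and differed directly by 0.4 (adjusted p = 0.000505). Its difference after E2F1 siRNA passed without E2F3 siRNA replicate 2 (adjusted p = 0.0239), in a fit of only the 6 libraries compared (adjusted p = 0.0356) and under both scalings.

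SNHG15 (SNORA9) was at 62.22, 60.25 and 53.29 FPKM after E2F1 siRNA, 62.49, 59.32 and 60.78 after E2F3 siRNA, and 70.63, 70.41 and 67.87 in control. Every library of either siRNA was below every control library. It fell after E2F1 siRNA (log2 -0.25, SE 0.06, limma adjusted p = 0.00711) and after E2F3 siRNA (log2 -0.19, SE 0.06, adjusted p = 0.0258). The E2F3 siRNA call was lost with no filter (0.0582) and without control replicate 1 (0.0747), control replicate 2 (0.0678), E2F3 siRNA replicate 2 (0.071) or E2F3 siRNA replicate 3 (0.0619), at log2 -0.17 to -0.19.

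SNHG12, which holds SNORA61, SNORA44 and SNORD99 among others, was at 27.29, 24.99 and 25.2 FPKM after E2F1 siRNA, 29.48, 27.79 and 26.58 after E2F3 siRNA, and 22.16, 23.03 and 25.09 in control. E2F3 siRNA libraries were all above control, and E2F1 siRNA libraries overlapped both groups. It rose after E2F3 siRNA (log2 0.25, SE 0.06, limma adjusted p = 0.0135), a call lost without control replicate 1 (log2 0.21, adjusted p = 0.0533). After E2F1 siRNA its difference was 0.14 (95% interval -0.01 to 0.28).

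EPB41L4A-AS1, a transcript antisense to EPB41L4A that hosts SNORA13, was at 37.58, 31.71 and 28.69 FPKM after E2F1 siRNA, 30.84, 25.01 and 25.81 after E2F3 siRNA, and 21.73, 30.79 and 22.81 in control. Control replicate 2 lay well above the other control libraries and overlapped both siRNA groups. The difference after E2F1 siRNA was 0.37 (95% interval 0.06 to 0.69, limma adjusted p = 0.06), and it passed without control replicate 2 (log2 0.52, adjusted p = 0.00969), without E2F1 siRNA replicate 3 (log2 0.46, adjusted p = 0.0452) and with a filter of 5 FPKM (adjusted p = 0.0462). After E2F3 siRNA it was 0.12 (interval -0.19 to 0.44). EPB41L4A-AS1 shares 49.6% of its annotated exon bases with EPB41L4A.

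SNHG7, SNHG8, SNHG9, SNHG11 and SNHG17 passed no comparison over all libraries. SNHG8 had intervals of -0.18 to 0.17 after E2F1 siRNA and -0.14 to 0.21 after E2F3 siRNA. SNHG7 was at 50.67 to 56.34 FPKM after E2F1 siRNA, 41.38 to 50.34 after E2F3 siRNA and 43.96 to 50.73 in control. SNHG17 was at 57.88 to 67.28 FPKM after E2F1 siRNA, 51.05 to 60.38 after E2F3 siRNA and 57.85 to 70.64 in control. SNHG9, a short host of SNORA78, had a wide spread, with 19.12 to 32.84 FPKM after E2F3 siRNA against 15.78 to 19.93 in control (log2 0.48, 95% interval 0.04 to 0.92, limma adjusted p = 0.0803). SNHG11 was at -0.27 after E2F1 siRNA (interval -0.51 to -0.03, adjusted p = 0.0736). Without E2F3 siRNA replicate 3, SNHG9 passed against control (log2 0.65, adjusted p = 0.0302) and directly (log2 0.62, adjusted p = 0.0303), and the direct difference of SNHG7, whose E2F3 siRNA and E2F1 siRNA libraries did not overlap, passed too (log2 -0.24, adjusted p = 0.0437). SNHG11 passed without control replicate 3 (log2 -0.36, adjusted p = 0.0318) or E2F1 siRNA replicate 3 (log2 -0.35, adjusted p = 0.037).

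Among hosts of scaRNAs, SNHG10 (SCARNA13) was at 9.91, 10.93 and 8.06 FPKM after E2F1 siRNA, 8.41, 11.81 and 10.17 after E2F3 siRNA, and 6.92, 6.92 and 7.06 in control. All siRNA libraries were above control. It rose after E2F1 siRNA (log2 0.41, SE 0.13, limma adjusted p = 0.0279) and after E2F3 siRNA (log2 0.47, SE 0.13, adjusted p = 0.0147). The E2F1 siRNA call was lost under 6 of 16 alternatives (adjusted p up to 0.097), namely no filter and leaving out any control library or E2F1 siRNA replicate 1 or 2, and the E2F3 siRNA call was kept in all.

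SNHG20 (SCARNA16) was at 8.54, 9.83 and 8.17 FPKM after E2F1 siRNA, 7.63, 8.48 and 7.21 after E2F3 siRNA, and 7.22, 5.52 and 6.2 in control. E2F1 siRNA libraries were all above control, and E2F3 siRNA libraries overlapped it at a single pair of values. It rose after E2F1 siRNA (log2 0.43, SE 0.1, limma adjusted p = 0.00905) and was at 0.27 after E2F3 siRNA (95% interval 0.03 to 0.5, adjusted p = 0.0715), a difference that passed without control replicate 1 (log2 0.35, adjusted p = 0.0324).

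SNHG21 (SCARNA15) was at 10.15, 10.31 and 12.82 FPKM after E2F1 siRNA, 8.7, 9.13 and 9.59 after E2F3 siRNA, and 5.76, 8.4 and 9.61 in control. The E2F1 siRNA libraries were above both other groups. Its rise after E2F1 siRNA (log2 0.46, SE 0.15, limma adjusted p = 0.0396) was lost under 12 of 16 alternatives (log2 0.27 to 0.59 over all, adjusted p up to 0.13), among them both scalings and leaving out any library other than control replicate 3. Of its exon bases, 72.9% are shared with AC105339.2 on the same strand.

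Of the protein-coding hosts, EIF4A2 (chr3:186783205-186789900, plus strand), a paralog of the translation initiation helicase EIF4A1 that also hosts SNORD2 and SNORA63, was at 204.66, 194.91 and 195.58 FPKM after E2F1 siRNA, 240.56, 252.46 and 236.71 after E2F3 siRNA, and 161.99, 177.91 and 166.91 in control. The groups did not overlap, with E2F3 siRNA highest. It rose after E2F1 siRNA (log2 0.23, SE 0.04, limma adjusted p = 0.00256) and more after E2F3 siRNA (log2 0.52, SE 0.04, adjusted p = 1.82e-05), with a direct difference of 0.29 (adjusted p = 0.000522). All of these calls held under the 16 alternatives.

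TAF1D (chr11:93729948-93784391, minus strand), a subunit of the RNA polymerase I factor SL1 that hosts SNORD5, SNORD6 and several SNORA genes, was at 188.07, 178.9 and 196.79 FPKM after E2F1 siRNA, 235.41, 208.23 and 216.9 after E2F3 siRNA, and 205.15, 207.33 and 203.83 in control. Control lay between the siRNAs without overlap. Neither difference from control passed (log2 -0.13, 95% interval -0.24 to -0.02, limma adjusted p = 0.0716 after E2F1 siRNA, and 0.1, interval -0.02 to 0.21, adjusted p = 0.159 after E2F3 siRNA). The direct difference did (log2 0.23, SE 0.05, adjusted p = 0.00498). The difference after E2F1 siRNA passed under both scalings, without E2F1 siRNA replicate 3 (log2 -0.16, adjusted p = 0.0479), without E2F3 siRNA replicate 1 (adjusted p = 0.0373) and in a fit of only the 6 libraries compared (adjusted p = 0.0422).

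MIR17HG (chr13:91347820-91354579, plus strand), the transcript processed into the microRNAs printed above and a known target of E2F factors and MYC, was at 3.96, 4.69 and 5.26 FPKM after E2F1 siRNA, 5.38, 3.84 and 5.15 after E2F3 siRNA, and 2.23, 2.65 and 2.42 in control. Every library of either siRNA was above every control library. It rose after E2F1 siRNA (log2 0.71, SE 0.13, limma adjusted p = 0.00184) and after E2F3 siRNA (log2 0.75, SE 0.13, adjusted p = 0.00155). Both calls were kept under all 16 alternatives, and the direct difference was 0.03 (95% interval -0.25 to 0.32). MCM7, host of the paralogous miR-106b-25 cluster, rose after E2F1 siRNA (log2 0.36, adjusted p = 1.44e-05) and after E2F3 siRNA (log2 0.14, adjusted p = 0.0055). The microRNAs themselves were listed at 0 in every library.

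**Figure D3:**
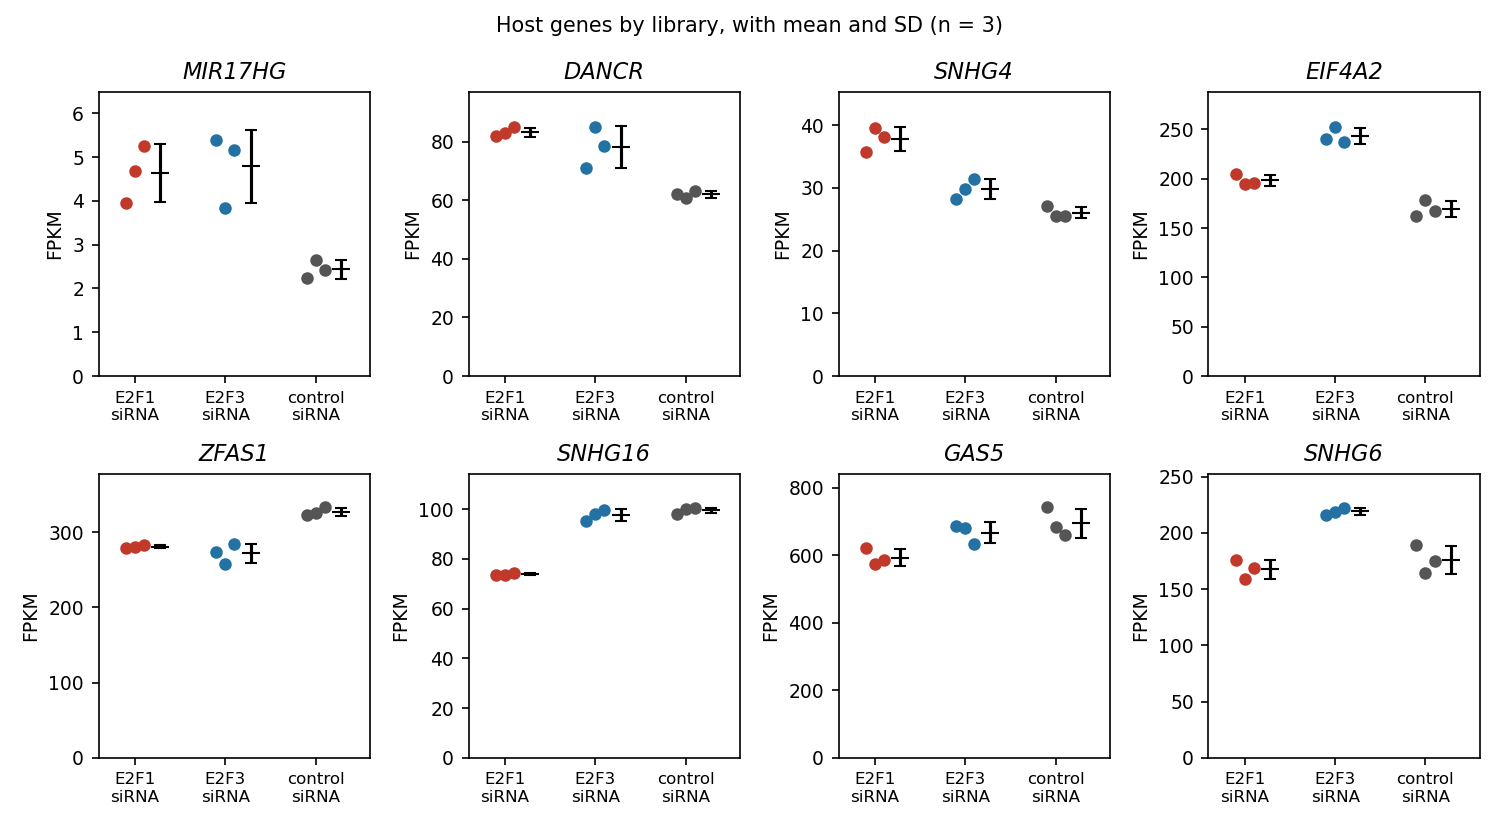
FPKM of 8 hosts in each library (points), with mean and SD (bars, n = 3), for E2F1 siRNA, E2F3 siRNA and control from left to right. ZFAS1 was lower and MIR17HG, DANCR and EIF4A2 higher in all libraries of both siRNAs, whereas SNHG16 and GAS5 were lowest after E2F1 siRNA (73.8 and 593.8 FPKM on average) and SNHG6 highest after E2F3 siRNA (219.0).

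The 6 other entries had too few libraries at 1 FPKM to be tested. SNHG27 was listed at 0 in every library. SNHG18 reached 0.05 FPKM at most and SNHG22 0.94. SNHG25 had 0.92 to 2.16 FPKM after E2F1 siRNA, 0.0 to 0.89 after E2F3 siRNA and 0.58 to 2.63 in control. Both entries named SNHG28, one non-coding and one protein-coding, stayed below 1 FPKM and overlap each other.

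Several hosts sit beside or across a protein-coding gene, and these neighbours did not always follow them. The pairs detailed below are only a part of those found. Among the rest, RFC4 rose with EIF4A2 after E2F1 siRNA (log2 0.27) and SIL1 with SNHG4 after E2F3 siRNA (log2 0.26). TRAF7 fell after E2F3 siRNA (log2 -0.82), where SNHG19 was not called, and C11orf54 after E2F1 siRNA (log2 -1.26), where TAF1D was not called. ZNFX1, which starts 248 bases from ZFAS1 on the opposite strand and shares 249 exon bases with it, was at 25.1, 24.01 and 24.06 FPKM after E2F1 siRNA, 17.75, 16.61 and 16.29 after E2F3 siRNA, and 33.08, 33.18 and 33.39 in control. ZNFX1 fell after E2F1 siRNA (log2 -0.43, limma adjusted p = 0.000105) and after E2F3 siRNA (log2 -0.94, adjusted p = 9.3e-07), as did ZFAS1. Since use of strand in counting is not given in the sources used here, reads from shared bases of opposite genes cannot be told apart.

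SLC3A2, an amino acid transporter chain that starts 188 bases from SNHG1, fell after E2F1 siRNA (log2 -0.5, limma adjusted p = 4.81e-06), where SNHG1 was at 0.14, and after E2F3 siRNA (log2 -0.28, adjusted p = 0.000194), where SNHG1 had an interval of -0.11 to 0.1. SEC14L1 shares 460 bases with SNHG20 on its own strand and fell after E2F1 siRNA (log2 -0.99, adjusted p = 8.03e-06), where SNHG20 rose, and after E2F3 siRNA (log2 -0.55, adjusted p = 0.000395). GLRX5, a mitochondrial iron-sulfur factor across from SNHG10, fell after E2F1 siRNA (log2 -0.97, adjusted p = 1.45e-06) and was at 0.12 after E2F3 siRNA (adjusted p = 0.119). UBE3A, the ubiquitin ligase to which SNHG14 runs antisense, was at 45.29, 43.59 and 46.35 FPKM after E2F1 siRNA, 35.37, 34.9 and 35.44 after E2F3 siRNA, and 17.31, 16.62 and 19.59 in control. UBE3A rose after E2F1 siRNA (log2 1.29, adjusted p = 4.13e-07), where SNHG14 fell (log2 -0.25). UBE3A also rose after E2F3 siRNA (log2 0.95, adjusted p = 3.26e-06), where SNHG14 was not called (log2 -0.07). SNHG14 shares 0.5% of its annotated exon bases with UBE3A. MED17, a Mediator subunit that starts 164 bases from TAF1D, rose after E2F1 siRNA (log2 0.18, adjusted p = 0.0253) and fell after E2F3 siRNA (log2 -0.66, adjusted p = 1.17e-05). RCC1, which shares 242 bases with SNHG3, rose after E2F1 siRNA (log2 0.49, adjusted p = 9.58e-06) and was at 0.09 after E2F3 siRNA (adjusted p = 0.104), and the direct difference passed (log2 -0.41, adjusted p = 2.58e-05).

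**Figure D4:**
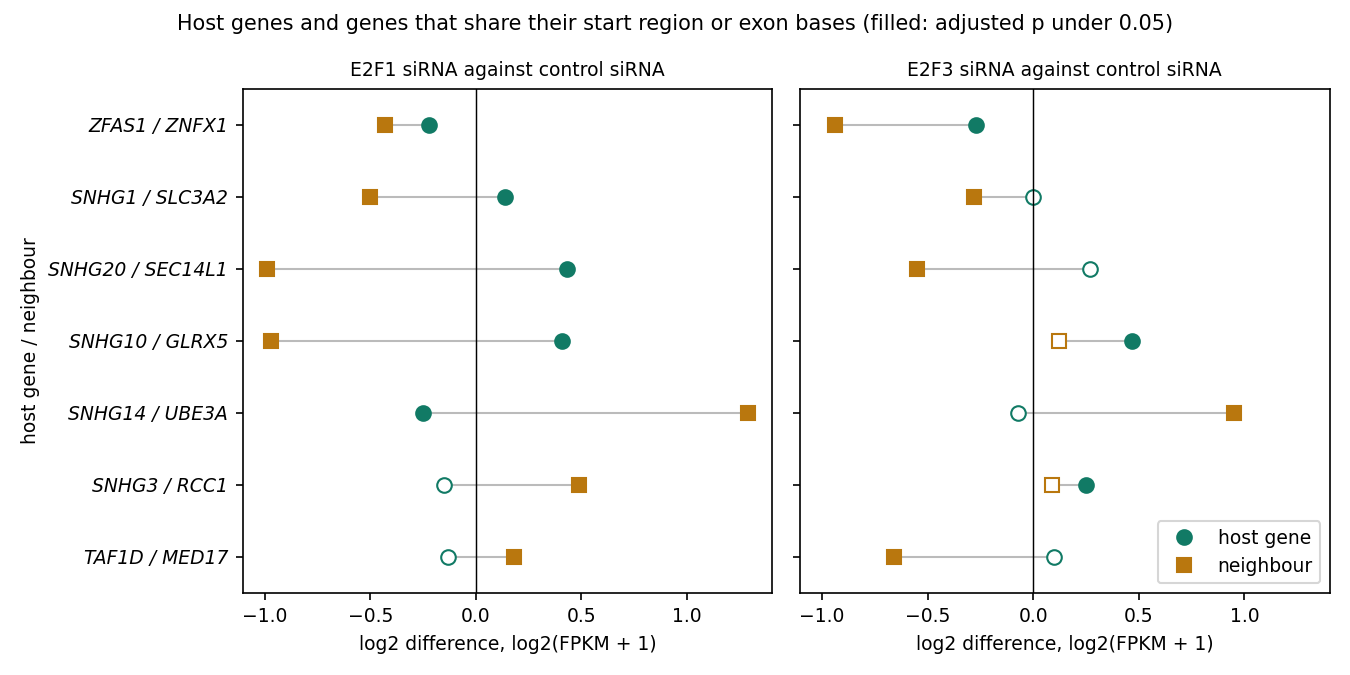
Log2 differences of 7 hosts (circles) and of a neighbouring gene that shares their start region or exon bases (squares), for E2F1 siRNA and E2F3 siRNA against control, with filled symbols for adjusted p under 0.05. ZFAS1 and ZNFX1 lie on the same side of 0 in both panels, while UBE3A lies far to the right of SNHG14 (1.29 after E2F1 siRNA, 0.95 after E2F3 siRNA) and SEC14L1 to the left of SNHG20 (-0.99 after E2F1 siRNA, -0.55 after E2F3 siRNA).

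The machinery around snoRNAs was read from lists chosen with earlier results of these data known. All 4 core H/ACA proteins rose after E2F1 siRNA (median log2 0.34), namely the pseudouridine synthase DKC1 (0.49, limma adjusted p = 7.81e-06), GAR1 (0.41), NHP2 (0.27) and NOP10 (0.2). After E2F3 siRNA 3 of 4 rose, DKC1 (0.25), NOP10 (0.23) and NHP2 (0.2), and 2 did under RLE scaling. Of the 4 core box C/D proteins, the methyltransferase FBL (0.29, adjusted p = 0.0012) and SNU13 (0.13) rose after E2F1 siRNA, and after E2F3 siRNA SNU13 rose (0.15) and NOP56 fell (-0.13). With RLE or upper-quartile scaling 1 of these rose after E2F1 siRNA, and with RLE scaling 0 rose after E2F3 siRNA. Of 13 assembly factors, 6 rose and 1 fell after E2F1 siRNA and 3 rose and 2 fell after E2F3 siRNA. The nucleolar scaffold proteins NOLC1 (log2 1.17) and TCOF1 (0.99) rose after E2F1 siRNA and also after E2F3 siRNA (NOLC1 0.98, TCOF1 0.45), while PIH1D1 (-0.55) and RPAP3 (-0.44), subunits of the R2TP chaperone, fell after E2F3 siRNA. The background shares are those given above, 37.8% of all genes after E2F1 siRNA and 37.6% after E2F3 siRNA.

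Among 15 nonsense-mediated decay factors, 7 rose after E2F1 siRNA, where 20.5% of all genes were called higher. After E2F3 siRNA 4 rose and 3 fell (1 fell under upper-quartile scaling), where 21.1% of all genes were called higher and 16.4% lower. After E2F1 siRNA the exon junction proteins CASC3 (log2 0.61) and RBM8A (0.5) rose with UPF2 (0.38). After E2F3 siRNA EIF4A3, the helicase of the exon junction complex, fell strongly to 29.4 FPKM, against 70.9 in control (log2 -1.24, limma adjusted p = 7.95e-08), whereas UPF2 (0.34), SMG1 (0.33) and RBM8A (0.31) rose. MYC, a regulator of ribosome biogenesis, rose after E2F1 siRNA (log2 0.26, adjusted p = 0.00942) and was at -0.05 after E2F3 siRNA (adjusted p = 0.545), with a direct difference of -0.31 (adjusted p = 0.0029). What part these genes have in the host levels was not tested.

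Ribosomal protein mRNAs, which share the pyrimidine start with many hosts, are set here against the same background shares. Of 79, 2 rose and 14 fell after E2F1 siRNA (20.3% called, median -0.05), and 5 rose and 3 fell after E2F3 siRNA (10.1% called, median 0.02), a direction that turned to 2 rising and 8 falling under RLE scaling. RPL14 fell after E2F1 siRNA (log2 -0.41, limma adjusted p = 3.2e-05), while after E2F3 siRNA RPS26 rose to 481.3 FPKM, against 379.8 in control (log2 0.34, adjusted p = 0.00028), and RPS20 fell (-0.29). Ribosomal protein genes have many processed pseudogenes that can split their reads. Of 15 other mRNAs with such a start, 7 rose and 3 fell after E2F1 siRNA and 5 rose and 0 fell after E2F3 siRNA, led by EIF3F (log2 0.58 after E2F1 siRNA and 0.72 after E2F3 siRNA). The other 232 tested genes that hold an annotated snoRNA or scaRNA gene had 59 higher and 42 lower after E2F1 siRNA (43.5%) and 52 higher and 28 lower after E2F3 siRNA (34.5%; 43 lower under RLE scaling). The median of these other hosts was 0.06 after E2F1 siRNA and 0.04 after E2F3 siRNA. They are any genes enclosing such a small RNA gene on the same strand, so some can overlap the hosts studied here. SEC14L1, which shares exon bases with SNHG20, is among them.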

How the data were processed

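The 9 libraries of HK1 RNA comprise 3 per siRNA. The tables deposited by the authors hold FPKM per gene, per the file headers, and no counts. The tools named, per the submitters' processing notes, are HTSeq, DESeq, TopHat, HISAT2 and Trimmomatic, with build GRCh38. For versions, roles and strand, nothing is given in the sources used here. Of the Ensembl identifiers, 56933 were found in GENCODE 29 as written, 1328 once their version was removed, and 120 not at all.

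Genes with an Ensembl identifier and at least 1 FPKM in at least 3 libraries were taken as log2(FPKM + 1). A single limma fit (limma 3.58.1, R 4.3.3; trend, not robust) over all 9 libraries, with a mean per group, gave 3 two-sided contrasts, adjusted by Benjamini-Hochberg over 13777 genes at a threshold of 0.05. Intervals are at 95%. The fit was run on simulated data with known changes in a small part of the genes, in the E2F1 siRNA group alone. Far more genes were called in the real data, so that run says little about the calls reported here. Tables and sequences were handled in Python 3.11.15 with pandas 2.3.3. The 16 alternatives were 2 scalings, no filter, a filter of 5 FPKM, an added constant of 0.1, only the 6 libraries compared, a replicate term and leaving out each of the 9 libraries. The rule for naming took host genes called in a comparison, and always GAS5, ZFAS1, DANCR, SNHG1, TAF1D, EIF4A2, EPB41L4A-AS1 and MIR17HG. Of each list it took up to 4 called genes with the largest differences per comparison, and not all of these are named above. A result which this rule names is not reported here. The host genes and lists were chosen with earlier results of these data known. At most 0.49% of values were identical between any pair of libraries. The depth of the libraries is known only relative to each other, from 2638 single-exon genes of 900 to 1500 bp, so no counting intervals are given.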

Additional observations from a re-analysis of the deposited data

Results flagged for a closer look

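The response of 9 hosts differed between the siRNAs by the direct limma test, E2F3 siRNA minus E2F1 siRNA. The log2 difference was positive for SNHG16 (0.4), SNHG3 (0.4), SNHG6 (0.39), EIF4A2 (0.29), TAF1D (0.23) and GAS5 (0.17). It was negative for SNHG26 (-0.46), SNHG4 (-0.33) and SNHG1 (-0.14). TAF1D and SNHG26 passed this test without passing either comparison with control. The calls of GAS5 and SNHG1 were lost under 5 and 10 of 16 alternatives, and the other 7 were kept under all of them. Among all genes, 45.5% passed the same test.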

How the results depend on the processing

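Over the 26 tested hosts and 3 comparisons, 1132 recomputed values kept their direction and side of the threshold. Another 59 lost a call, 23 gained one and 34 changed sign. The kept directions were in part fixed in advance, because some alternatives left the log2 difference unchanged. These were both changes of filter, the fit of only the libraries compared and the replicate block. Leaving out a library of the group not compared also left it unchanged. In these settings a call could change through its adjusted p alone, also where calls are said above to hold under all alternatives. The 34 values that changed sign were all uncalled and at most 0.11 in size. Their cause was not tested. By scaling these were SNHG5 (-0.03) and SNHG8 (-0.00) after E2F3 siRNA with RLE, and with the upper quartile SNHG1 after E2F3 siRNA (0.01), SNHG5 after E2F1 siRNA (-0.00) and SNHG5 directly (0.03). Leaving out 1 library at a time, values crossed 0 after E2F1 siRNA for SNHG17 (-0.09 to 0.06), SNHG19 (-0.13 to 0.11), SNHG9 (-0.08 to 0.2), SNHG8 (-0.04 to 0.04) and SNHG5 (-0.01 to 0.09). They did so after E2F3 siRNA for SNHG7 (-0.1 to 0.04), SNHG1 (-0.04 to 0.05), SNHG11 (-0.13 to 0.05) and SNHG8 (-0.04 to 0.12), and directly for SNHG5 (-0.08 to 0.02), MIR17HG (-0.05 to 0.16), SNHG15 (-0.01 to 0.1), SNHG10 (-0.05 to 0.18) and SNHG8 (-0.04 to 0.13). With no filter on low genes, 5 hosts were called higher after E2F1 siRNA in place of 8, and 1 lower after E2F3 siRNA in place of 2; more genes were then tested. Leaving out 1 library at a time, hosts called after E2F1 siRNA numbered 5 to 7 higher and 4 to 7 lower, after E2F3 siRNA 7 to 8 higher and 1 to 2 lower, and in the direct comparison 5 to 8 higher and 2 to 3 lower. Deviations of same-numbered libraries correlated weakly (-0.106 to 0.112), against -0.0768 to 0.0692 for differently numbered ones. Same-numbered correlations were all positive between the siRNAs (0.0292 to 0.112) and all negative with control (-0.106 to -0.00538). The numbers were not taken as pairs in the main fit. With a replicate block, 7 hosts were higher and 5 lower after E2F1 siRNA, 8 and 2 after E2F3 siRNA, and 6 and 2 in the direct comparison. Absolute depth is unknown, which leaves the precision of low hosts such as MIR17HG and SNHG26 to the spread of 3 libraries, and hosts below 1 FPKM could not be compared.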
